A study of Mus musculus with 22 samples.

Results

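Glucocorticoid-responsive genes were examined in ribosome-bound mRNA of optic nerve astrocytes after elevation of intraocular pressure (IOP). The genes are Fkbp5, Tsc22d3, Sgk1, Zbtb16, Pdk4, Cdkn1a, Plin4, Arrdc2, Arl4d and the receptor gene Nr3c1, taken by symbol, and all 10 were found among the 29367 genes of the count table. They were selected on earlier results of these data, among them the differences between the 4 groups in edgeR and DESeq2, so their fold changes and levels are a description and not independent evidence of a direction. Libraries came from the optic nerve head (ONH) and the optic nerve proper (ONP), 7 or 30 days after microbeads were injected into 1 eye to raise IOP. There were 4 libraries per region at 7 days and 7 per region at 30 days, 22 in all, and no uninjected group was analysed here. For every library, nerves from 4 mice (2 of each sex, 3 to 4 months old) were combined. The study states that the ONH and the ONP were taken from the same mice. The labels number the 30-day libraries 1 to 7 in each region, and the sources used here do not say that equal numbers mark the same mice.

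The mice of all 4 groups were Rpl22HA/HA animals with GFAP-Cre 73.12 on a C57Bl/6 background, from crossing B6J.129(Cg)-Rpl22tm1.1Psam/SjJ mice to the B6.Cg-Tg line (GFAP-Cre) 73.12Mvs/J. They are given the genotype WT. Cre recombination gives these cells an HA tag on the ribosomal protein Rpl22, and the tagged ribosomes were pulled down with their mRNA. The tag depends on the GFAP promoter fragment that drives Cre, so it marks the cells in which that transgene was active at any stage. The time of day at which the mice were killed is not given in the sources used here. Corticosterone follows a daily rhythm and rises with handling, and the part of either in the values below was not tested.

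In mice the main glucocorticoid is corticosterone, which crosses the cell membrane and binds the glucocorticoid receptor, the product of Nr3c1. The receptor waits in the cytoplasm in a complex with Hsp90 chaperones, and Fkbp5 is a co-chaperone that lowers its affinity for the hormone. Bound receptor enters the nucleus and occupies response elements, which are inverted repeats of the letters AGAACA with a spacer of NNN. It induces Fkbp5 itself, Tsc22d3 (GILZ, a leucine zipper protein that limits inflammatory signaling), the kinase Sgk1, the zinc finger repressor Zbtb16 and the clock gene Per1. Astrocytes express the receptor at high levels, and many genes of this kind are known to respond in them. None of these genes answers to glucocorticoids alone. Sgk1 also responds to osmotic stress and is made by oligodendrocytes, Cdkn1a to p53, and Pdk4 to fasting.

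Libraries held 16292489 to 33307092 counts, and levels are given as CPM, the counts of a gene scaled to a common library total after TMM normalization. The amount of 3 counts, 0.0901 to 0.184 CPM, was taken as the floor of detection, which covers counting error only. All 10 genes were above this floor in all 22 libraries. The 7 astrocyte markers summed to 13167 to 31967 CPM per library. Markers of other cells were also present. The 8 oligodendrocyte markers summed to 80095 to 107709 CPM in the ONP at 7 days and to 25331 to 83585 CPM in the ONP at 30 days. In the ONH they summed to 18627 to 35962 CPM at 7 days and 13269 to 39960 CPM at 30 days. Single libraries stood apart in markers of other tissues. Photoreceptor markers reached 4261 CPM in ONH library 6 at 7 days and 1454 CPM in ONH replicate 4 at 30 days, and pituitary hormone genes reached 217 CPM in ONH replicate 7 at 30 days. In such bulk libraries, fewer cells of a type and less RNA per cell cannot be told apart. The 7-day libraries carry file numbers that do not tie the regions to each other, and they are called library 1, 3, 5 and 6 (ONH) and library 1, 2, 5 and 6 (ONP).

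The receptor itself was the steadiest of these genes within each group. Nr3c1 (ENSMUSG00000024431, chromosome 18, 39410545 to 39519421, minus strand, GRCm38) encodes the transcription factor that all the other genes are known to answer to. In the ONP it stood at 142, 142, 149 and 154 CPM in the 4 libraries of day 7, and at 30 days from 112 to 146 CPM with a median of 121. In the ONH it stood at 62.1, 90.1, 67.5 and 86.8 CPM at 7 days and from 77.6 to 105 CPM with a median of 88.2 at 30 days. Every ONP library was above every ONH library at both times, while the 2 times overlapped within each region. Its coefficient of variation was 3.79% among the ONP libraries at 7 days and at most 18.1% in the other groups.

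**Figure D1:**
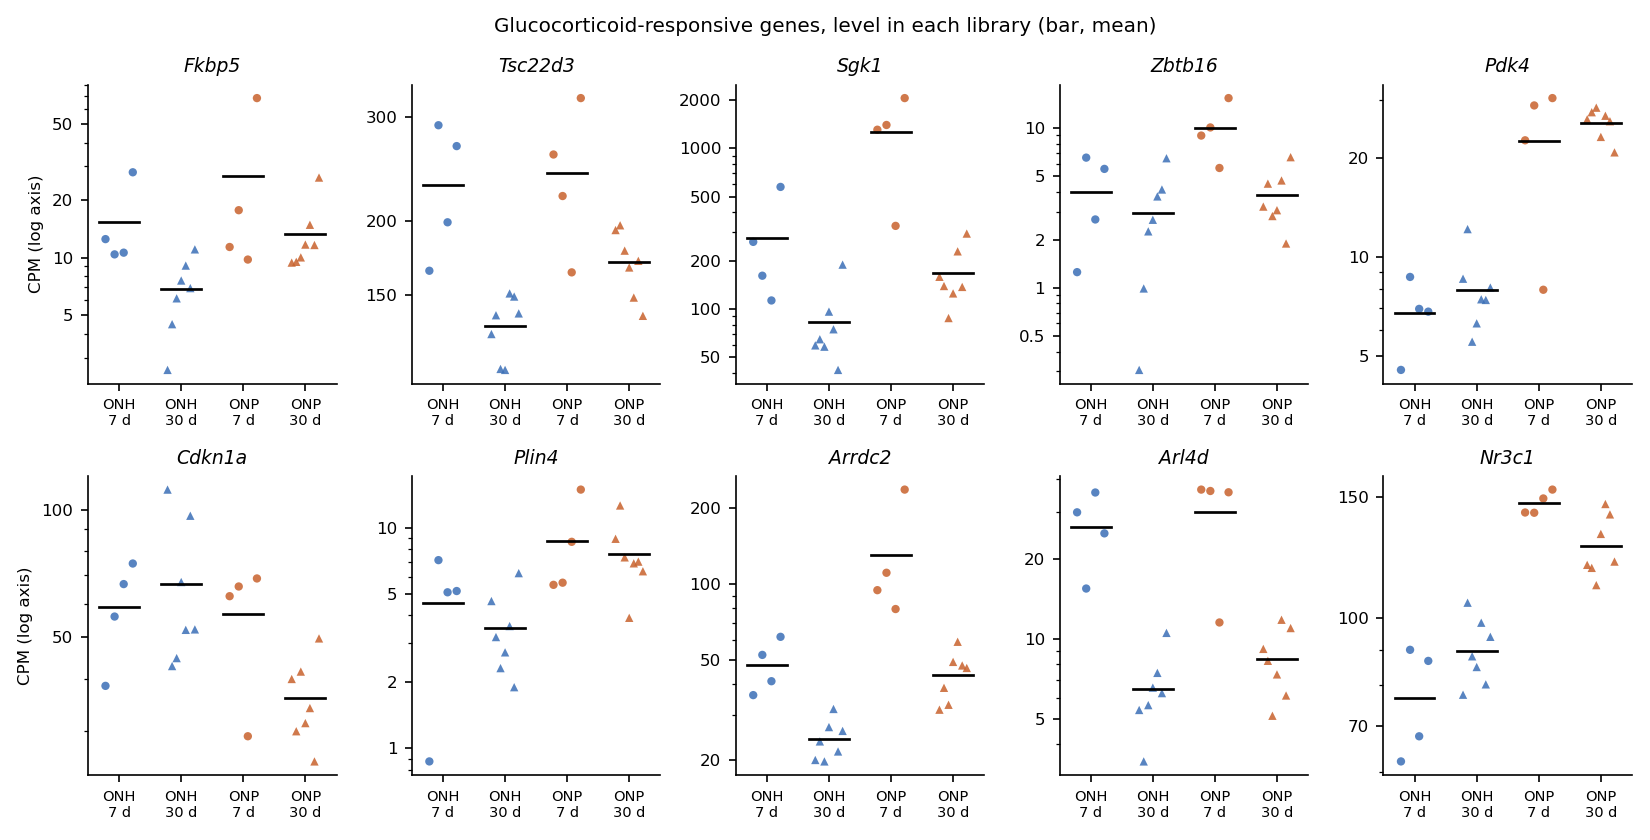
Level of each of the 10 genes in all 22 libraries, in CPM on a log axis. Circles are 7-day and triangles 30-day libraries, blue is ONH and orange ONP, and the bar is the group mean. Sgk1 in the ONP at 7 days ranged from 329 to 2053 CPM, above all 7 ONP libraries of day 30 (87.8 to 295), whereas Pdk4 differed mainly between the regions.

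Per kilobase of exon, the scale on which genes can be compared, the order of the genes shifted with time. In the ONP at 7 days Sgk1 led with a mean of 259 CPM per kb, ahead of Tsc22d3 (55.6), Arrdc2 (40.4), Arl4d (21.6) and Nr3c1 (19.1). At 30 days in the ONP, Tsc22d3 led with 39.3 CPM per kb, followed by Sgk1 (34.1), Nr3c1 (16.6), Arrdc2 (13.5) and Cdkn1a (10.1). In the ONH, Sgk1 and Tsc22d3 were close to each other at 7 days (56.6 and 53.1 CPM per kb), and at 30 days Tsc22d3 stood at 30.7, Cdkn1a at 18.8 and Sgk1 at 17.0. Fkbp5, Zbtb16 and Plin4 were the 3 lowest in every group. With Pdk4 they lay between 0.556 and 7.30 CPM per kb in all 4 groups, and Arl4d came into that range at 30 days (4.67 in the ONH and 6.07 in the ONP).

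In the ONP, the change from 7 to 30 days was examined first. Of the 10 genes, 5 were lower at 30 days at adjusted p under 0.05 in edgeR's quasi-likelihood test (Sgk1, Arl4d, Arrdc2, Zbtb16 and Tsc22d3) and none was higher. Among all 15491 genes tested, 9.21% were called lower and 7.82% higher. The median log2 fold change of the 10 genes was -0.86, beside a median of -0.0081 over all genes tested. Since the genes were chosen with this contrast known, nothing is read from that share. The genes are given by role, kinases and signaling proteins first.

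Sgk1 (ENSMUSG00000019970, chromosome 10, 21882184 to 21999903, plus strand), a serine/threonine kinase that controls ion channels and transporters, had the largest difference in the ONP. Its level was 1305, 1396, 329 and 2053 CPM in libraries 1, 2, 5 and 6 of day 7 and 87.8 to 295 CPM with a median of 139 at 30 days. No 30-day library reached the lowest 7-day library. The log2 fold change was -2.96 ± 0.40 (SE, adjusted p = 0.00103 by edgeR), and the mean at 7 days was 7.60 times that at 30 days. In order of mean level the groups were ONP at 7 days (1271 ± 711 CPM, SD, n = 4), ONH at 7 days (278 ± 208, n = 4), ONP at 30 days (167 ± 70.5, n = 7) and ONH at 30 days (83.5 ± 49.4, n = 7), and neighbours in this order overlapped, the first pair only between ONH library 6 and ONP library 5.

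The promoter windows of Sgk1 and Tsc22d3 are shown because they were the only ones, of the 8 of these genes with a window, that held the hexamer AGAACA. Each window runs from 250 bases before to 50 after a start in RefSeq (GRCm38.p6), is read 5′ to 3′ on the strand of its gene, and has every such hexamer in capitals, on either strand (TGTTCT on the other). The Sgk1 window is chr10:21993640-21993939 on the plus strand, and the Tsc22d3 window is chrX:140600473-140600772 on the minus strand.
Sgk1: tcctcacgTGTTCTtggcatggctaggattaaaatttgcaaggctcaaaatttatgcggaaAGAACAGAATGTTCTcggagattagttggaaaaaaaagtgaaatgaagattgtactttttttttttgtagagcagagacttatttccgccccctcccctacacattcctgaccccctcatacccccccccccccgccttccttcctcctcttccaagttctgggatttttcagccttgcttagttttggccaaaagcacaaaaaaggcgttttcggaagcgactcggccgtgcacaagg
Tsc22d3: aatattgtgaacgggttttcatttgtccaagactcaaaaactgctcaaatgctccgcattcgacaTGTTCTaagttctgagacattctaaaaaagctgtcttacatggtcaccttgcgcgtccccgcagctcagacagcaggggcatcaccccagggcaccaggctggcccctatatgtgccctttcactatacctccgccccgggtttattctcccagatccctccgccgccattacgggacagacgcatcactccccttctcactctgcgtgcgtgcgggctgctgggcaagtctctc
The Sgk1 window held the full inverted repeat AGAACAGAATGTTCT from 189 to 175 bases before the start, so that 2 of its 3 hexamers are the arms of that element. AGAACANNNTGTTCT occurred in 3 of 32851 promoter windows of the genome (0.00913%), and a looser form, GNACANNNTGTNC, in 156 (0.475%). The hexamer alone is common: it was in 19.0% of all windows and in 4 of the 16 windows of these genes. The Tsc22d3 window held 1 hexamer, 185 bases before the start. The hexamer was in 3 of the 6 Sgk1 windows and in 1 of the 3 Tsc22d3 windows, and the Sgk1 window with the full inverted repeat is the one shown. Counts per gene do not show which start was used. A match of letters is not a measured binding site.

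Arrdc2 and Arl4d were the other genes with large differences in the ONP. Arrdc2 (ENSMUSG00000002910, chromosome 8, 70835129 to 70839720, minus strand) encodes an arrestin domain protein. It stood at 94.6, 111, 79.5 and 238 CPM in the ONP at 7 days and between 31.6 and 58.9 CPM (median 46.4) at 30 days, with no overlap, and its log2 fold change was -1.61 ± 0.26 (adjusted p = 0.00241, edgeR). Arl4d (ENSMUSG00000034936, chromosome 11, 101665541 to 101667832, plus strand) encodes a small GTPase of the ADP-ribosylation factor family. It stood at 36.4, 36.0, 11.5 and 35.6 CPM at 7 days and between 5.13 and 11.8 CPM (median 8.26) at 30 days, a log2 fold change of -1.87 ± 0.30 (adjusted p = 0.00230). Library 5 alone brought the Arl4d groups into contact. Sgk1 and Arrdc2 were 2 genes of the 10 whose ONP groups did not overlap, and 5.55% of all genes tested in the ONP were lower at 30 days with no overlap. Sgk1, Arrdc2 and Arl4d were called in the ONP under all 17 settings of the analysis.

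Zbtb16 and Tsc22d3 were lower by less. Zbtb16 (ENSMUSG00000066687, chromosome 9, 48654297 to 48836222, minus strand), a transcriptional repressor also known as PLZF, stood at 8.99, 10.1, 5.63 and 15.4 CPM in the ONP at 7 days and between 1.90 and 6.58 CPM (median 3.23) at 30 days. Only library 5 fell inside the 30-day range, and the log2 fold change was -1.42 ± 0.33 (adjusted p = 0.0132, edgeR). Tsc22d3 (ENSMUSG00000031431, chromosome X, 140539528 to 140600659, minus strand) stood at 259, 220, 164 and 323 CPM at 7 days and between 138 and 197 CPM (median 171) at 30 days, a log2 fold change of -0.54 ± 0.16 (adjusted p = 0.0369). Tsc22d3 was called in 6 of the 17 settings, and its call depended on the library left out and on the fit. Without ONP library 6 of day 7, the called genes were Sgk1, Arrdc2 and Arl4d, 3 in place of 5.

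Fkbp5, Cdkn1a, Plin4, Pdk4 and Nr3c1 did not pass the test in the ONP. Fkbp5 (ENSMUSG00000024222, chromosome 17, 28399094 to 28517527, minus strand) stood at 11.4, 17.7, 9.77 and 68.4 CPM at 7 days and between 9.42 and 26.2 CPM (median 11.6) at 30 days. Its log2 fold change of -1.04 ± 0.48 (adjusted p = 0.153, edgeR) rested on library 6, and without that library it was 0.03. Cdkn1a (ENSMUSG00000023067, chromosome 17, 29090976 to 29100727, plus strand), the cell cycle inhibitor p21, stood at 62.5, 65.9, 29.2 and 68.9 CPM at 7 days and between 25.5 and 49.7 CPM (median 34.1) at 30 days. Its log2 fold change was -0.69 ± 0.22 (adjusted p = 0.0527), and it passed in 3 of 17 settings: with DESeq2, without replicate 7 of day 30, and without library 5 of day 7, which brought the count to 6. Nr3c1 differed by -0.24 ± 0.09 (adjusted p = 0.0810).

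The 2 genes of fuel use differed little with time in either region. Pdk4 (ENSMUSG00000019577, chromosome 6, 5483351 to 5496309, minus strand) encodes a kinase that shuts off pyruvate dehydrogenase. It stood at 22.7, 29.0, 7.95 and 30.5 CPM in the ONP at 7 days and between 20.8 and 28.5 CPM (median 26.3) at 30 days, a log2 fold change of 0.15 ± 0.27 (adjusted p = 0.736, edgeR). Plin4 (ENSMUSG00000002831, chromosome 17, 56100591 to 56109803, minus strand), a lipid droplet coat protein, stood at 5.50, 5.63, 8.61 and 14.8 CPM at 7 days and between 3.90 and 12.6 CPM (median 7.01) at 30 days. Its log2 fold change was -0.23 ± 0.32 (adjusted p = 0.665). The sign of both rested on 1 library: Pdk4 was at -0.13 without ONP library 5 of day 7, and Plin4 at 0.18 without library 6. The end of Plin4 overlaps Hdgfl2 on the opposite strand, a gene of up to 138 CPM, by 17 bases. The libraries were unstranded, and the part of this overlap in the Plin4 counts was not tested.

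Markers of other cells moved with time in the ONP too. Of the 8 oligodendrocyte markers 7 were called lower at 30 days (median log2 fold change -0.85), as were 4 of 6 endothelial markers, and 1 of 7 astrocyte markers was called higher. The microglial markers summed to 868 to 1452 CPM at 7 days and 137 to 1872 CPM at 30 days. Replicate 5 was the 30-day ONP library whose oligodendrocyte sum (83585 CPM) lay inside the 7-day range. In that library Sgk1 (228 CPM), Arrdc2 (58.9), Tsc22d3 (148) and Zbtb16 (4.70) were below all 7-day ONP libraries, and the other 6 genes were not. It is 1 library, picked by its marker sum. Of the 30-day ONP libraries it also held the highest microglial (1872 CPM), endothelial (90.3) and neuronal (249) sums and the lowest astrocyte sum (14634). Within groups, the correlation with the oligodendrocyte sum over 22 libraries was 0.63 for Arrdc2, 0.61 for Sgk1, 0.58 for Fkbp5, 0.48 for Arl4d, 0.46 for Nr3c1, 0.43 for Zbtb16, 0.10 for Plin4, -0.06 for Pdk4, -0.03 for Tsc22d3 and -0.07 for Cdkn1a. These libraries share their depth and dissection, and the part of oligodendrocyte RNA in the time differences was not tested beyond these values.

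**Figure D2:**
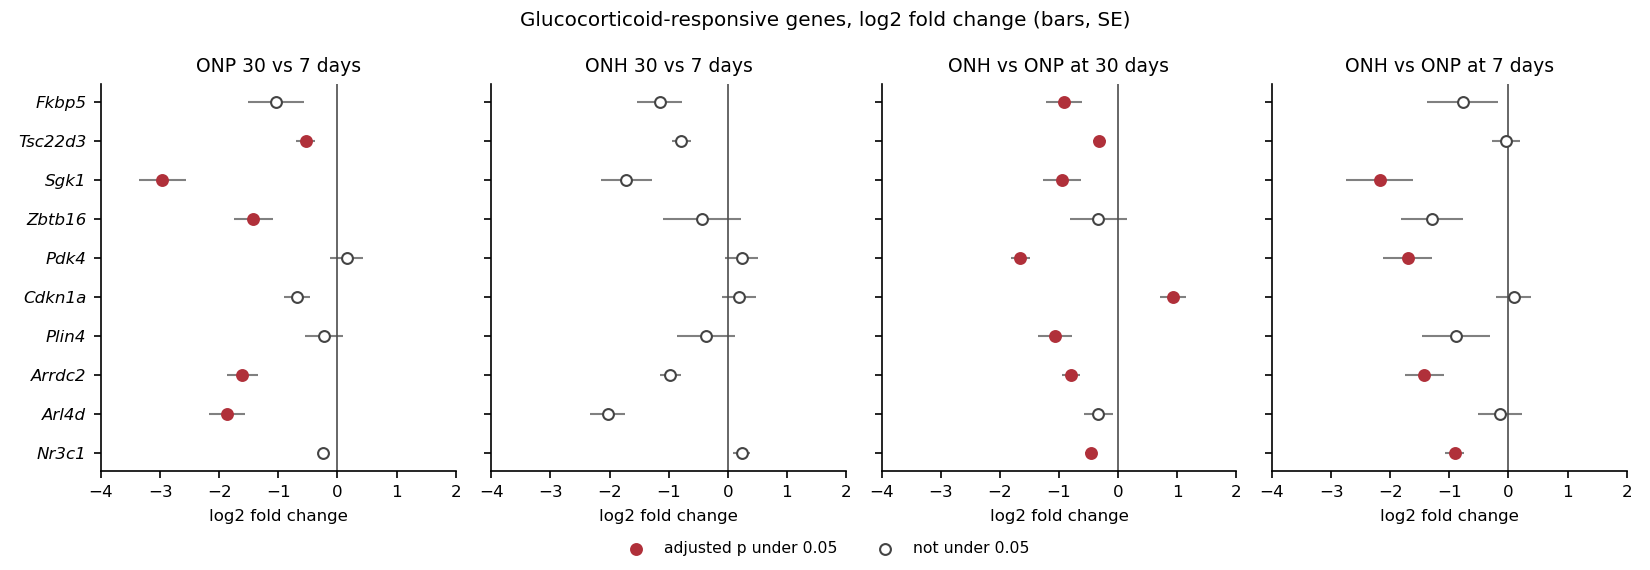
Log2 fold change of the 10 genes with its SE in the comparisons of 30 with 7 days, by region, and of the ONH with the ONP, by time. Filled points passed an adjusted p under 0.05 in edgeR, and open points did not. Sgk1 was at -2.96 in the ONP and -1.71 in the ONH for 30 against 7 days, and Cdkn1a was the gene called higher in the ONH than in the ONP at 30 days (0.93).

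In the ONH, the same comparison of 30 with 7 days called none of the 10 genes by edgeR, and none of all 15668 genes tested (0.0%). At an unadjusted p under 0.05, 5 of the 10 genes were lower and none higher, beside 6.80% of all genes lower. DESeq2 called 4 genes lower (Tsc22d3, Sgk1, Arrdc2 and Arl4d) beside 0.931% of all genes, and the edgeR fit over all 4 groups together called Tsc22d3, Arrdc2 and Arl4d beside 1.74% of all genes. Without ONH library 5 of day 7, edgeR called the last 3 as well, beside 1.04% of all genes. The biological coefficient of variation in this comparison was 48.2%.

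Arl4d had the largest difference in the ONH. It stood at 29.9, 15.5, 35.5 and 24.9 CPM in libraries 1, 3, 5 and 6 of day 7 and between 3.45 and 10.5 CPM (median 6.24) at 30 days, with no overlap. The log2 fold change was -2.03 ± 0.29 (adjusted p = 0.0700, edgeR). Arrdc2 stood at 36.1, 52.3, 41.1 and 61.7 CPM at 7 days and between 19.7 and 31.8 CPM (median 23.6) at 30 days, a log2 fold change of -0.97 ± 0.18 (adjusted p = 0.180). Tsc22d3 stood at 165, 290, 199 and 268 CPM at 7 days and between 112 and 151 CPM (median 139) at 30 days, a log2 fold change of -0.78 ± 0.16 (adjusted p = 0.180). For these 3 genes every 30-day library was below every 7-day library, and 0.543% of all genes tested in the ONH were lower at 30 days in that way.

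Sgk1 and Fkbp5 overlapped between the times in the ONH. Sgk1 stood at 262, 161, 113 and 575 CPM at 7 days and between 41.8 and 189 CPM (median 64.8) at 30 days, and the highest of the 30-day values was that of replicate 7. Its log2 fold change was -1.71 ± 0.43 (adjusted p = 0.189, edgeR). Fkbp5 stood at 12.5, 10.4, 10.6 and 27.97 CPM at 7 days and between 2.59 and 11.05 CPM (median 6.93) at 30 days, a log2 fold change of -1.15 ± 0.38 (adjusted p = 0.236). As in the ONP, library 6 of day 7 held the highest Fkbp5 value. The sources do not say whether ONH library 6 and ONP library 6 came from the same mice.

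The other genes of the ONH showed small differences of either sign. Zbtb16 was at 1.26, 6.54, 2.68 and 5.56 CPM at 7 days and 0.307 to 6.48 CPM (median 2.67) at 30 days, with a log2 fold change of -0.43 ± 0.66. Plin4 was at 0.873, 7.12, 5.09 and 5.16 CPM and 1.89 to 6.21 CPM (median 3.19), with -0.37 ± 0.49. Both covered most of the same range at the 2 times. Cdkn1a was at 38.4, 56.0, 66.8 and 74.7 CPM and 42.8 to 112 CPM (median 52.2), with 0.19 ± 0.29, and Pdk4 at 4.53, 8.70, 6.95 and 6.82 CPM and 5.52 to 12.2 CPM (median 7.44), with 0.23 ± 0.28. The receptor gene was at 0.24 ± 0.14. The adjusted p values of these 5 genes were between 0.469 and 0.797 by edgeR. All 17 endothelial, mural, fibroblast and epithelial markers tested in the ONH were at negative log2 fold changes, beside 51.6% of all genes. Of them 12 had an unadjusted p under 0.05 by edgeR, beside 6.80% of all genes lower at that limit. None was called by edgeR, and 7 were called by DESeq2, beside 0.931% of all genes called lower. The 4 neuronal and 3 photoreceptor markers tested were negative too, with none at an unadjusted p under 0.05. Their part in the differences above was not tested.

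Whether the change with time differed between the regions was tested as an interaction over all 22 libraries. The fit took these libraries as independent, although the study states that both regions came from the same mice. None of the 10 genes passed, beside 0.543% of 16748 genes tested (91 genes), and none did under DESeq2 or any other setting. At an unadjusted p under 0.05 by edgeR, 2 genes did, Nr3c1 and Cdkn1a, beside 12.6% of all genes (2103 of 16748). The difference (ONP minus ONH) was -1.24 ± 0.64 for Sgk1 (adjusted p = 0.443), -0.64 ± 0.33 for Arrdc2 (0.445), -0.87 ± 0.39 for Cdkn1a (0.361) and -0.47 ± 0.16 for Nr3c1 (0.183). For Arl4d it was 0.17 ± 0.44 and for Tsc22d3 0.25 ± 0.23. The standard errors leave room for a difference in either size or sign for most of these genes, so the calls in the ONP and their lack in the ONH do not show a difference between the regions.

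The regions were then compared at each time. At 30 days, 7 of the 10 genes were lower in the ONH than in the ONP and 1 was higher, beside 20.0% and 21.8% of 15133 genes tested. These ONP libraries are also the 30-day arm of the comparison over time, so the values stand side by side only. Pdk4 differed most, at 5.52 to 12.2 CPM in the ONH and 20.8 to 28.5 CPM in the ONP, without overlap, a log2 fold change of -1.65 ± 0.16 (adjusted p = 2.28e-06, edgeR). Nr3c1, which also did not overlap, differed by -0.46 ± 0.09 (adjusted p = 0.000990). Pdk4 and Nr3c1 were thus 2 of the 10, and 8.04% of all genes tested at 30 days were lower in the ONH without overlap.

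Plin4 was lower in the ONH by -1.07 ± 0.30 (adjusted p = 0.00884, edgeR), Sgk1 by -0.95 ± 0.32 (0.0256), Fkbp5 by -0.92 ± 0.30 (0.0235), Arrdc2 by -0.80 ± 0.15 (0.000646) and Tsc22d3 by -0.32 ± 0.11 (0.0243), all on the log2 scale. The ranges of these genes overlapped between the regions. Cdkn1a was the exception, higher in the ONH (42.8 to 112 CPM) than in the ONP (25.5 to 49.7 CPM), with a log2 fold change of 0.93 ± 0.22 (adjusted p = 0.00325). Arl4d (-0.33 ± 0.24, adjusted p = 0.291) and Zbtb16 (-0.33 ± 0.48, 0.604) did not pass. The fit over all 4 groups called 5 of these 8 genes and lost Fkbp5, Sgk1 and Tsc22d3, and without ONP replicate 7 Fkbp5 and Sgk1 did not pass. Tsc22d3 did not pass without ONH replicate 3 or 4 or without ONP replicate 1 or 2, with 7 called each time. Of the 8 oligodendrocyte markers, 6 were also called lower in the ONH at 30 days.

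At 7 days, 4 of the 10 genes were lower in the ONH and none was higher, beside 6.81% and 6.34% of 14752 genes tested. They were Sgk1 (-2.18 ± 0.57, adjusted p = 0.0312), Pdk4 (-1.71 ± 0.41, 0.0201), Arrdc2 (-1.42 ± 0.33, 0.0173) and Nr3c1 (-0.91 ± 0.16, 0.00425) by edgeR. Arrdc2 and Nr3c1 did not overlap between the regions, 2 of the 10 genes, against 11.9% of all genes tested at 7 days that were lower in the ONH in that way. These 2 were called under all 14 settings. Without ONP library 1, 2 or 6 of day 7 they were the only ones called, 2 in place of 4. Sgk1 was also lost without ONH library 1, 3 or 5 of day 7, and it was called in 8 of the 14 settings. Fkbp5 was at -0.78 ± 0.60 (adjusted p = 0.426) and turned to 0.25 without ONP library 6. Tsc22d3 was level between the regions, at -0.04 ± 0.24 (0.930). All 8 oligodendrocyte markers were lower in the ONH at 7 days, by a median of -1.86 on the log2 scale, and their part in the differences was not tested.

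Other genes known to be induced by glucocorticoids were examined from a list of 24 written from general knowledge. This list and those below were written with earlier results of these data known. Their counts are therefore a description and not independent evidence. In the ONP, 10 of the 23 tested were lower at 30 than at 7 days and 1 was higher, beside 9.21% lower and 7.82% higher of all genes. Their median log2 fold change was -0.62, and that of all genes -0.0081. The largest differences among the 10 called lower were those of Per1, a clock gene with a response element (-1.52 ± 0.29, adjusted p = 0.00565, edgeR), and Nfkbia, the inhibitor of NF-kappaB (-1.48 ± 0.16, 0.000435). Next among them were Errfi1, a brake on the EGF receptor (-1.29 ± 0.22, 0.00349), and the MAP kinase phosphatase Dusp1 (-1.11 ± 0.22, 0.00590). Per1 went from 11.2 ± 3.07 CPM (SD, n = 4) to 4.00 ± 1.48 CPM (SD, n = 7). Bcl6 (-0.92), Cebpd (-0.79), Rhob (-0.63) and Pnpla2 (-0.61) were lower by less. Gjb6, which encodes the astrocyte gap junction protein connexin 30, was the 1 gene called higher, by 1.18 ± 0.32 (adjusted p = 0.0265), and is named after its value was seen. Without ONP library 6 of day 7, 5 genes were lower and none higher, and without library 1, 6 were lower.

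In the ONH, none of the 22 tested genes of this list passed by edgeR. Of them 12 had an unadjusted p under 0.05, beside 13.9% of all genes, and 2 of these 12, the metallothionein genes Mt1 (0.82 ± 0.23) and Mt2 (0.68 ± 0.24), were at positive values. In all 18 were at negative values, and the median was -0.54. DESeq2 called 2 lower and 1 higher, beside 2.49% of all genes called. Per1 was at -0.73 ± 0.29 (adjusted p = 0.287). The lowest adjusted p values, seen before these genes were named, were those of Errfi1 at -1.29 ± 0.19 (0.0700) and Cebpd at -0.78 ± 0.19 (0.185). Nfkbia was the 1 gene of the list whose change differed between the regions, by -1.14 ± 0.26 (ONP minus ONH, adjusted p = 0.0409, edgeR). This call was lost with size factors, library size only or a filter of 1 count. It was also lost in at least 1 fit with a library left out. Between the regions at 30 days the list went both ways. There 7 genes were higher in the ONH, among them Anxa1 (2.27 ± 0.41), Map3k6 (1.27 ± 0.25), Cebpd (1.08 ± 0.19), Nfkbia (0.86 ± 0.15) and Mt2 (0.89 ± 0.19). Gjb6 (-1.89 ± 0.24), Arrdc3 (-1.77 ± 0.18) and Pnpla2 (-0.71 ± 0.18) were lower. Of all genes 21.8% were higher and 20.0% lower at 30 days. At 7 days 4 were higher (Anxa1, Map3k6, Dusp1 and Cebpd) and 2 lower (Arrdc3 and Rhob), beside 6.34% and 6.81% of all genes.

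**Figure D3:**
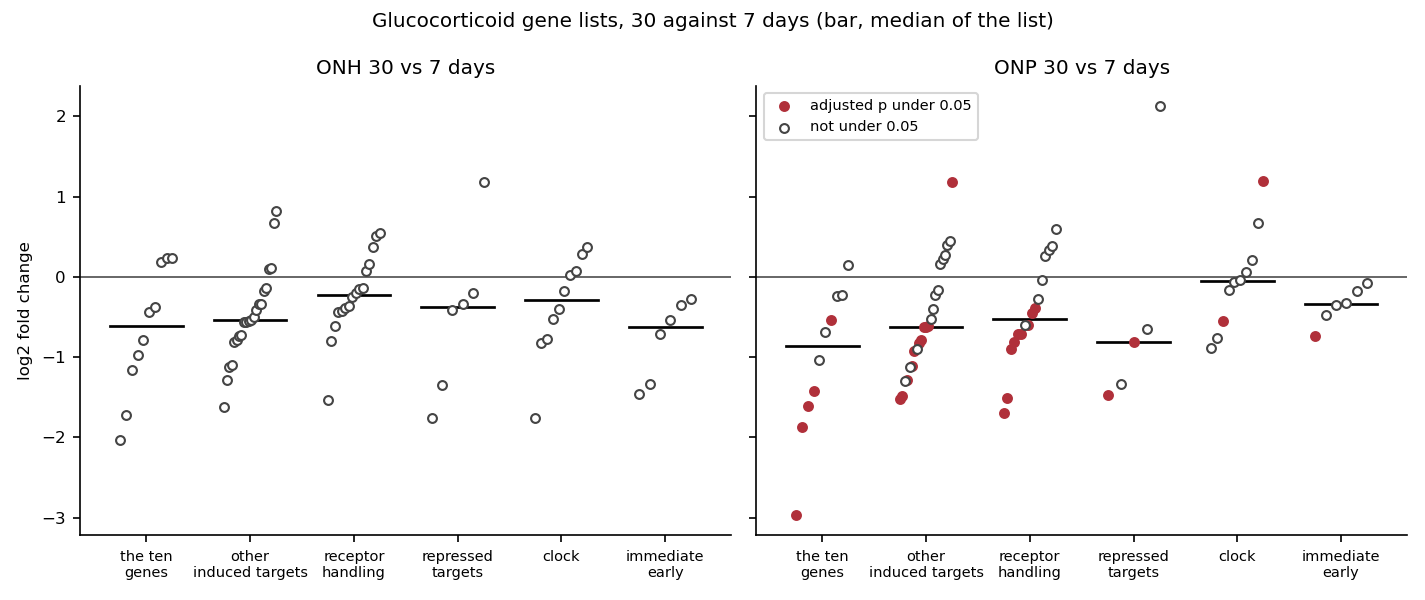
Log2 fold change of 30 against 7 days for each tested gene of the 10 genes and of the lists around them, in the ONH and the ONP, with the bar at the median of the list. Filled points passed an adjusted p under 0.05 in edgeR. In the ONP from 7 to 30 days, 5 of the 10 genes, 10 of 23 other induced genes and 9 of 16 receptor handling genes were lower, beside 9.21% of all genes, and in the ONH no point is filled, with none of all 15668 genes called.

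Genes that handle the receptor and its hormone were also counted. In the ONP, 9 of the 16 tested were lower at 30 days and none was higher, beside 9.21% and 7.82% of all genes. They included the chaperones Hsp90ab1 (-0.89 ± 0.12, adjusted p = 0.000985), Hsp90aa1 (-0.81 ± 0.14, 0.00335) and Hspa8 (-0.71 ± 0.10, 0.00103) and the co-chaperones Fkbp4 (-0.60 ± 0.11, 0.00382) and Stip1 (-0.45 ± 0.10, 0.00867). The co-regulators Nrip1 (-0.71 ± 0.19) and Ncoa2 (-0.38 ± 0.11) were lower too. Abcb1a, a steroid-exporting pump of vessel walls, was the ninth at -1.51 ± 0.46, in the comparison in which 4 of 6 endothelial markers were lower. In the ONH none of 16 passed by edgeR. Of them 7 had an unadjusted p under 0.05, beside 13.9% of all genes, and DESeq2 called 1, beside 2.49%. At 30 days 4 were higher in the ONH than in the ONP, beside 21.8% of all genes, and none was lower, beside 20.0%. The 4 were Hsp90aa1 (0.72 ± 0.13), Nr3c2 (0.57 ± 0.21), Hsp90ab1 (0.46 ± 0.09) and Nrip1 (0.44 ± 0.17). At 7 days edgeR called none, beside 6.34% higher and 6.81% lower of all genes. There 2 had an unadjusted p under 0.05, beside 4264 of all 14752 genes, and DESeq2 called 1, beside 19.0% of all genes. Nr3c2, the mineralocorticoid receptor, which also binds corticosterone, had means of 13.6 to 24.0 CPM over the groups. Hsd11b1, the enzyme that regenerates corticosterone, had means of 0.652 to 0.959 CPM. Its single libraries ran from 0 to 2.51 CPM, some of them under the floor. Hsd11b2, which inactivates corticosterone, was at or under the floor in all libraries, at most 0.115 CPM.

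Further lists set these values beside related programs. Of genes known to be repressed by glucocorticoids, 2 of 5 tested were lower in the ONP at 30 days, Ptgs2 (-1.47 ± 0.36) and Vcam1 (-0.81 ± 0.17), and none higher. Of all genes tested there, 9.21% were lower and 7.82% higher. Of 10 clock genes, Nr1d1 was lower (-0.55 ± 0.16) and Bhlhe41 higher (1.197 ± 0.27), counts near those shares. Of 6 immediate early genes, which answer to handling and dissection, Nr4a1 was lower (-0.74 ± 0.17). In the ONH none of these lists had a gene called by edgeR for 30 against 7 days, and no gene of all 15668 was called. There 5 genes had an unadjusted p under 0.05, beside 13.9% of all genes, and DESeq2 called 1, beside 2.49%. All 6 immediate early genes tested there were at negative values, with a median of -0.62. Between the regions, Dbp and Bhlhe41 were higher in the ONH at 30 days (0.99 ± 0.35 and 0.90 ± 0.27) and at 7 days (1.35 ± 0.30 and 1.76 ± 0.31), and Cry1 was lower at 30 days (-0.42 ± 0.14). Ier2 was higher in the ONH at both times, by 1.19 ± 0.16 and 1.58 ± 0.42, while Arc (-1.42 ± 0.31) and Nr4a1 (-0.72 ± 0.14) were lower at 30 days. Of all genes, 21.8% were higher and 20.0% lower in the ONH at 30 days, and 6.34% and 6.81% at 7 days.

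Correlation among libraries of 1 group was not used to choose the 10 genes, but the tests behind that choice depend on within-group spread. The genes were also taken as known to answer to the same hormone, which pairs of all genes are not. With the 4 group means removed, 42 of the 45 pairs of genes had a positive Pearson's r over the 22 libraries, 9 pairs were above 0.5, and the median was 0.36. Over all pairs of 16748 genes the median was -0.00098, and 5.33% were above 0.5. The strongest pairs were Fkbp5 with Arrdc2 (0.79), Tsc22d3 with Pdk4 (0.73), Fkbp5 with Sgk1 (0.71), Fkbp5 with Zbtb16 (0.68) and Sgk1 with Arl4d (0.66). Cdkn1a and Nr3c1 had the lowest r (-0.31). The points share depth and cell makeup, so these values describe the libraries only.

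**Figure D4:**
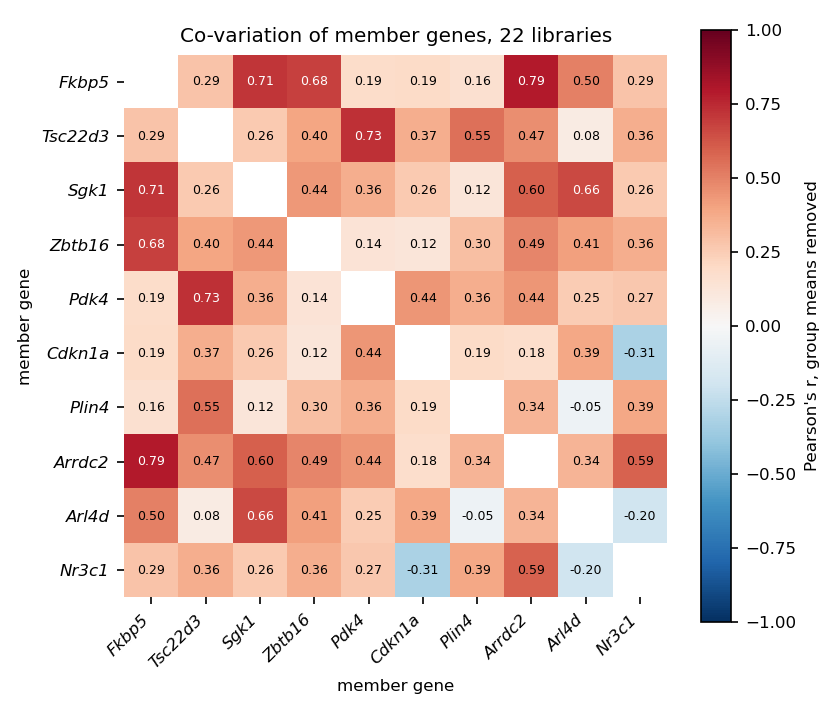
Pearson's r of log2 CPM for each pair of the 10 genes over the 22 libraries, after the mean of each group was removed; the diagonal is left blank. The pair Fkbp5 and Arrdc2 reached 0.79, Tsc22d3 and Pdk4 0.73, and the receptor gene Nr3c1 was negative with Cdkn1a (-0.31).

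Part of this shared variation rested on few libraries. In the ONP at 7 days, library 6 was the highest for 9 of the 10 genes and library 5 the lowest for 8. Library 6 also held the highest oligodendrocyte (107709 CPM), microglial (1452), neuronal (335) and fibroblast (330) sums of its group, and the lowest astrocyte sum (14608). Its endothelial sum (126) was below that of library 5 (152). Library 5 held the lowest microglial (868), neuronal (162) and fibroblast (55.2) sums, while its oligodendrocyte sum (90291) was not the lowest. The part of these cells in the shared variation was not tested. Without library 6 the median r was 0.28, without library 5 it was 0.32, and without both and replicate 7 of each region at 30 days it was 0.19, with 31 of 45 pairs positive. By group alone, the median r was 0.75 in the 4 ONP libraries of day 7 and 0.59 in the 4 ONH libraries of day 7. It was 0.24 in the 7 ONH libraries of day 30, with 32 of 45 pairs positive, and 0.064 in the 7 ONP libraries of day 30, with 23 of 45 positive. Among the last 7, Sgk1 and Arl4d went together (0.91) and Fkbp5 and Tsc22d3 went opposite ways (-0.93). Among the 7 ONH libraries of day 30, Fkbp5 and Zbtb16 went together (0.97). Of all genes, those most like Sgk1 over the 22 libraries were Tyk2 (0.89), Tlr1 (0.86) and Trpv2 (0.85). Those most like Fkbp5 were Pwwp2b (0.85), AC166110.3 (0.82) and Acads (0.82), and those most like Tsc22d3 were 1700112J16Rik (0.77), Coq4 (0.75) and Ndufaf1 (0.74). Some of these genes were low: AC166110.3 had a mean of 0.389 CPM, near the floor of detection, Tlr1 1.36 CPM and 1700112J16Rik 1.59 CPM. Arl4d (0.68), Sgk1 (0.65) and Fkbp5 (0.58) also followed the sum of the microglial markers within groups. They followed the neuronal sum (0.63, 0.59 and 0.63) and the fibroblast sum (0.65, 0.56 and 0.54) about as closely, and with the astrocyte sum their r was -0.61, -0.43 and -0.44.

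The ONH and ONP libraries of equal number at 30 days were compared as if they came from the same mice, which the sources do not state, to ask whether a gene high in one region was high in the other. For Fkbp5 the 7 replicates stood in the same order in the 2 regions. From replicate 1 to 7 the ONH held 2.59, 4.49, 6.12, 7.59, 9.09, 6.93 and 11.05 CPM and the ONP 9.42, 9.51, 10.03, 11.7, 14.9, 11.6 and 26.2 CPM. In both regions Fkbp5 thus rose with the replicate number itself, apart from replicate 6. The sources do not say what the number stands for, and its part in the likeness was not tested. Spearman's rho was 1.0 (two-sided exact permutation p = 0.000397 over 5040 pairings, adjusted over all 15133 genes p = 0.532), and Pearson's r of log2 CPM was 0.77 (exact p = 0.0490, adjusted p = 0.5676). Without replicates 1 and 7, r was 0.92. For Arrdc2, r was 0.88 (exact p = 0.0125, adjusted p = 0.439) and rho 0.857 (exact p = 0.0238, adjusted p = 0.546), and r was 0.72 without replicates 3 and 5. No gene of the 10 and none of all 15133 passed after adjustment, with 1324 genes at an unadjusted p under 0.05.

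The other genes were less alike between the regions. Sgk1 had an r of 0.66 (exact permutation p = 0.106), which rested on replicates 6 and 7 and was 0.21 without them. Arl4d was at 0.39, Zbtb16 at 0.16, Plin4 at 0.11, Pdk4 at 0.06, Nr3c1 at -0.05, Cdkn1a at -0.25 and Tsc22d3 at -0.30. The median of the 10 genes was 0.14 and that of all genes 0.18, and 63.8% of all genes and 7 of the 10 had a positive r.

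**Figure D5:**
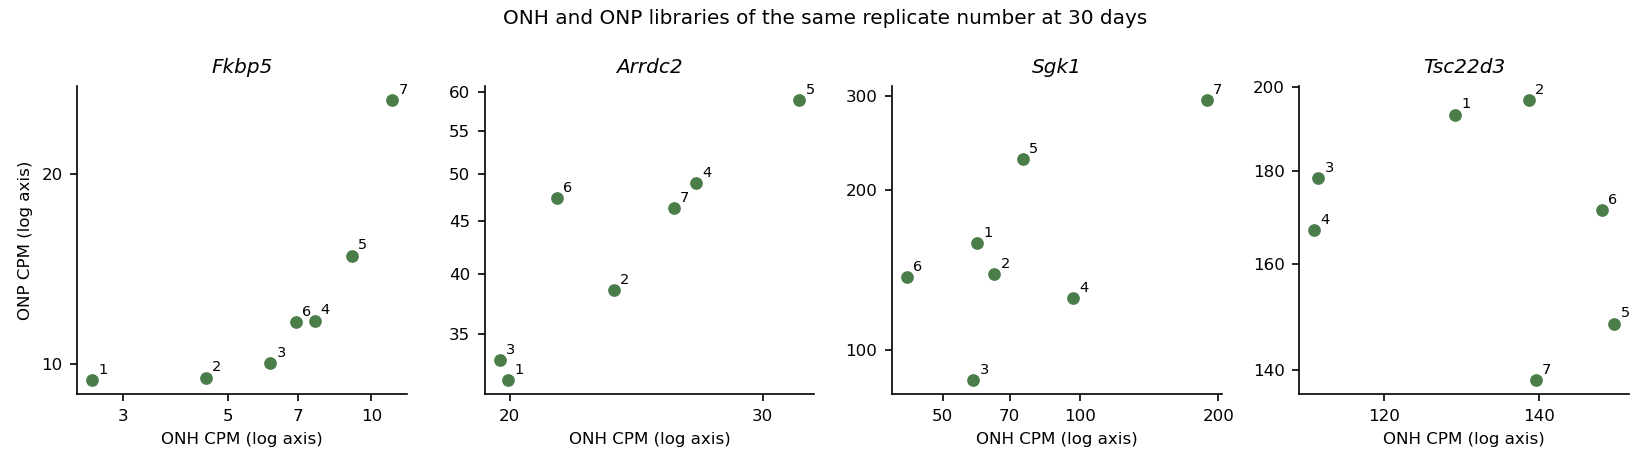
Level of Fkbp5, Arrdc2, Sgk1 and Tsc22d3 in the ONH (x axis) against the ONP (y axis) library of the same replicate number at 30 days, in CPM on log axes, each point numbered by its replicate. The Fkbp5 points rise in the same order on both axes (rho 1.0), whereas those of Tsc22d3 do not (r -0.30).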

How the data were processed

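Ribosome-bound mRNA of astrocytes was sequenced in 22 libraries (SMART-Seq HT, unstranded). The paper states that all libraries were made and run together, and no batch is named. The authors aligned reads with STAR 2.6.1d (mm10), quantified Ensembl 94 transcripts with Salmon 0.14.2, and deposited expected counts of each gene, rounded and not normalized. Their variance stabilized values (DESeq2 1.34.0) were not used.

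The 10 genes, the lists around them and the named genes were chosen with earlier results of these data known. Groups came from the labels, and columns of the 7-day libraries were mapped to their group only. Libraries held 16292489 to 33307092 counts. Counts were tested in R 4.3.3 with edgeR 4.0.16 (filterByExpr, TMM, quasi-likelihood test, Benjamini-Hochberg over all genes tested, adjusted p under 0.05, no fold limit), on the groups compared or, for the interaction, on all 4 groups. The scripts were tested on simulated data. Where nothing says that pools were independent litters or days, p-values measure only the spread between these libraries. ONH and ONP libraries were taken as independent in every fit but the replicate block. The study states that both regions came from the same mice. From each list outside the 10 genes, at most 8 genes past the threshold were named per comparison by p, and Nr3c2, Hsd11b1, Hsd11b2 and Per1 always. The values of 1 gene that this rule names are not reported here. Of 8 genes listed as repressed, 7 were analysed here.

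Alternatives were DESeq2 1.42.0, DESeq2-style size factors, library size only, a filter of 1 count, all 4 groups in a single fit, each library left out, and the replicate number as a block at 30 days. Correlations used log2 CPM with a prior count of 2. Positions and exon lengths came from GENCODE M21 (GRCm38), and promoter windows from RefSeq (GRCm38.p6), matched by symbol for 8 of the 10 genes.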

Additional observations from a re-analysis of the deposited data

Results flagged for a closer look

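Single libraries lay far from the other libraries of their group by Dixon's test in 6 of the 40 groups examined (10 genes in 4 groups). The test flags about 1 in 20 by chance where values are normal and groups independent. Here CPM were used and the 10 genes share the same libraries, so the 6 are not set against that rate. Fkbp5 accounted for 3 of them. It was at 27.97 CPM in ONH library 6 of day 7, where the other libraries held 10.4 to 12.5 CPM, at 68.4 CPM in ONP library 6 of day 7, where the others held 9.77 to 17.7 CPM, and at 26.2 CPM in ONP replicate 7 of day 30, where the others held 9.42 to 14.9 CPM. Sgk1 was at 189 CPM in ONH replicate 7 of day 30, and the other libraries held 41.8 to 96.3 CPM. In ONP library 5 of day 7, Cdkn1a was at 29.2 CPM (others 62.5 to 68.9) and Arl4d at 11.5 CPM (others 35.6 to 36.4). ONH library 6 of day 7 also held the highest photoreceptor marker sum, and ONH replicate 7 of day 30 the highest pituitary sum. Each of these libraries was also the highest of its group in the oligodendrocyte sum (35962 and 39960 CPM) and the microglial sum (1008 and 1462 CPM). ONP library 6 of day 7 was likewise the highest of its group in both sums (107709 and 1452 CPM). ONP replicate 7 of day 30 was the highest in neither. The part of any of these cells in the values above was not tested.

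Among the listed genes outside the 10, the change of Nfkbia from 7 to 30 days differed between the regions by an interaction test, by -1.14 ± 0.26 on the log2 scale (ONP minus ONH, adjusted p = 0.0409, edgeR). With size factors, library size only or a filter of 1 count it did not pass. Nor did it pass in at least 1 fit with a library left out. Its level was 223 ± 51.8 CPM (SD, n = 4) at 7 days and 82.0 ± 14.7 CPM (n = 7) at 30 days in the ONP, and 183 ± 27.6 CPM (n = 4) and 145 ± 31.0 CPM (n = 7) in the ONH.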

How the results depend on the processing

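Counts of called genes moved by over 1.5 times as follows, and the cause was not tested unless given. For 30 against 7 days in the ONH, where edgeR called none of any list, DESeq2 called 4 of the 10 genes, 3 other induced genes and 1 receptor handling gene, the filter of 1 count called 1, 1 and 0, and the single fit over all 4 groups, which shares 1 estimate of the spread, called 3, 1 and 1. In the ONP the single fit called 3 of the 10 genes (5 in the pairwise fit), 4 other induced genes (11) and 5 receptor handling genes (9). Between the regions at 30 days the single fit called 5 of the 10 genes (8), and the filter of 1 count called 2 receptor handling genes (4). At 7 days DESeq2 and the single fit each called 1 receptor handling gene (0). For the interaction, DESeq2 called 2 other induced genes (1) and 1 receptor handling gene (0), and size factors, library size only and the filter called 0 other induced genes.

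Leaving out 1 library at a time, the 10 genes had 0 to 3 calls in the ONH, 3 to 6 in the ONP, 2 to 4 between the regions at 7 days and 6 to 8 at 30 days. Other induced genes had 0 to 3 (ONH), 5 to 11 (ONP), 3 to 7 (regions, 7 days) and 0 to 2 (interaction), and receptor handling genes 2 to 5 (regions, 30 days), 0 to 2 (7 days) and 0 to 2 (interaction). Tsc22d3 calls in the ONP were lost most often.

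With the replicate block at 30 days, 8 of the 10 genes, 14 other induced genes (10 without the block) and 4 receptor handling genes were called, and 6717 of all genes (6322 without it); it changed no call among the 10 genes. The sources do not say that equal numbers mark the same mice. Over all genes, deviations of same-numbered libraries from their group means correlated at 0.0747 to 0.495, and 3 of 7 replicates correlated best with their own number.

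With library size only, Tsc22d3 between the regions at 7 days was 0.071 and the Pdk4 interaction 0.078; that scaling moved the median of all genes by 0.114 in the ONP and at 7 days and by 0.152 in the interaction. Leaving out 1 library, the ranges that crossed 0 were, in the ONP, Fkbp5 -1.31 to 0.028, Pdk4 -0.13 to 0.35 and Plin4 -0.40 to 0.18; between the regions at 7 days, Fkbp5 -1.24 to 0.25, Tsc22d3 -0.19 to 0.12, Cdkn1a -0.13 to 0.24 and Arl4d -0.42 to 0.040; and in the interaction, Fkbp5 -0.31 to 1.22, Pdk4 -0.34 to 0.15, Plin4 -0.13 to 0.60 and Arl4d -0.080 to 0.37. The Nr3c1 correlation between regions went from -0.05 to 0.00059 without 2 replicates. Of 910 fold changes of single genes under an alternative, 840 kept their direction and their side of the threshold. The median r among the 10 genes was 0.28 to 0.38 without single libraries and 0.19 without 4, settings chosen after the data were seen.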
